A study of Mus musculus with 16 samples.

Results

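The odorant receptor genes of mouse chromosome 10 were followed in sorted olfactory mucosa cells. They were chosen by probe set identifier and symbol: a probe set annotated to chromosome 10 whose only platform symbol is Olfr and a number, with pseudogene symbols left out and, for each gene, the probe set of highest mean level. This gave 65 genes of the 1080 odorant receptor genes and of the 19505 genes in the table. The rule used no measured difference, but it was set with earlier results of these data known. The RNA came from S100a5-tauGFP mice of strain C57BL/6, both sexes, aged 7 to 12 weeks, whose S100a5-linked reporter is a tau-tagged green fluorescent protein (GFP). The 24 mice sat singly in clean air chambers for 40 h and from 26 h on received pulses of 10 s every 20 min of the odor (isoamyl acetate mixed with whiskey lactone) or of the vehicle (filtered air). Each sort for GFP pooled the cells of 3 mice, which gave 4 pools per treatment, 2 fractions per pool and 16 arrays in 4 groups of 4: odor titled GFP-, odor titled GFP+, vehicle titled GFP- and vehicle titled GFP+.

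Sample titles and cell type tags name opposite fractions in all 16 samples, so that each library titled GFP- is tagged GFP+, and the groups here follow the titles. The level of S100a5, which binds calcium and whose transcript and reporter rise when an olfactory neuron is active, checks them. In odor it lay at 16.43 ± 0.27 in libraries titled GFP- and 15.27 ± 0.24 in libraries titled GFP+ (log2 level, SD, n = 4 each), so the fraction titled GFP- was the one with more S100a5. In vehicle it lay at 16.44, 16.35, 14.99 and 16.27 in titled GFP- libraries 1 to 4, against 14.59, 14.91, 16.37 and 15.47 in titled GFP+ libraries 1 to 4. Vehicle pool 3 thus ran opposite to the other 7 pools. No library was moved. Counts of calls are given for all 16 arrays as titled and for the 14 arrays without both libraries of vehicle pool 3, and differences of single genes are from the 14 arrays unless stated. Differences are titled GFP- minus titled GFP+ on the deposited log2 scale, tested with limma, and a gene was called where its p-value, adjusted by Benjamini-Hochberg over all genes of the table, was under 0.05. S100a5 was higher in titled GFP- by 1.16 ± 0.20 in odor (SE, adjusted p 0.000588) and by 1.37 ± 0.23 in vehicle (adjusted p 0.000560) on 14 arrays. It passed in neither treatment on 16 arrays (adjusted p 0.0625 and 0.553). As vehicle pool 3 was left out for its S100a5 level, the 14-array p-values of S100a5 are no independent check of the fractions. Omp, the mature neuron marker, lay between 18.44 and 18.68 in all 16 libraries.

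Each mature olfactory sensory neuron transcribes 1 odorant receptor gene from 1 of its alleles, so the receptor transcripts of a sorted fraction report which neurons it holds. Receptors sit in the cilia and signal through a G protein containing Gnal, adenylyl cyclase 3 and a cyclic nucleotide-gated channel, with the chloride channel Ano2 amplifying the current. Receptor genes lie in clusters that arose by repeated duplication, and those of mouse chromosome 10 belong to class II, the tetrapod type. No ligand of a single one of these 65 receptors is used here. In the assay, neurons whose receptor binds the odor are activated, raise S100a5 and GFP, and carry their receptor transcript into the GFP+ sort. Because RNA was measured in bulk, fewer neurons expressing a receptor and less of its RNA per neuron cannot be told apart.

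All 65 genes were found by symbol in the RefSeq gene table of assembly GRCm38.p6. In its gene order they form 2 clusters, with 472 other protein-coding genes between them. The first holds 9 genes (Olfr1357, Olfr1356, Olfr1355, Olfr1354, Olfr8, Olfr1353, Olfr1352, Olfr1351 and Olfr57). The second holds 56 genes, beginning with Olfr9 and Olfr763 and ending with Olfr825, Olfr826 and Olfr827. RefSeq promoter windows, which run from 250 bases before to 50 bases after the annotated start, were at hand for 52 of the 65 genes. In each window printed here the 50 bases after that start begin with ATG, the letters of a start codon. The annotated start may thus be that of the coding sequence, and where transcription starts was not examined. Neighbouring genes can be close copies, which matters for probes, and the first pair of windows is shown for that reason: Olfr1354 and Olfr8 are adjacent and their windows are identical at 299 of 300 positions. The window of Olfr1354 lies at chr10:78916592-78916891 and that of Olfr8 at chr10:78954957-78955256, both on the plus strand (GRCm38.p6). Capitals mark the longest run that both share, of 160 bases.
Olfr1354: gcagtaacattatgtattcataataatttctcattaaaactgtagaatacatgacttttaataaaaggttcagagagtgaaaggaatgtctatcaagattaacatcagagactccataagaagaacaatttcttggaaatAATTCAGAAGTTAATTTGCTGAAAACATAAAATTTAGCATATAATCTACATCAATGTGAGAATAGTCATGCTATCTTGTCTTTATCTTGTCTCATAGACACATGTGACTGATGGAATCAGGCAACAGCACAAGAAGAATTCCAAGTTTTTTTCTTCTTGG
Olfr8: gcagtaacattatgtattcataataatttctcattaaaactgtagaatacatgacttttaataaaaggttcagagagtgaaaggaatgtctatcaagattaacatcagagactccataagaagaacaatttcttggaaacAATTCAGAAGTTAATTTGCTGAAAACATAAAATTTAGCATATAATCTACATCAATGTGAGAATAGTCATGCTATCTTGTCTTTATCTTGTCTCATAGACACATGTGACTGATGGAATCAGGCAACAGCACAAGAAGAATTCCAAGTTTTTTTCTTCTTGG

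The adjacent genes Olfr825 and Olfr826 are shown next, since both differed strongly between fractions. Their windows match at 165 of 300 positions, compared without gaps. That count does not show how far the genes are copies of each other, and shared probe sequence was not tested. Their windows lie at chr10:130163275-130163574 and chr10:130180829-130181128, both on the minus strand. The capitals again mark the longest shared run, of 37 bases, which crosses the annotated start and runs into the bases from ATG on.
Olfr825: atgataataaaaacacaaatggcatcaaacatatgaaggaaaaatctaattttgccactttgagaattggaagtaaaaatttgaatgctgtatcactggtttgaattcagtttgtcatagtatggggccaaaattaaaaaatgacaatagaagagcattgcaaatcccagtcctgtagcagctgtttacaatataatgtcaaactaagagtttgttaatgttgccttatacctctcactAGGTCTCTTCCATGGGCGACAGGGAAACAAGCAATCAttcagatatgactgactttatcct
Olfr826: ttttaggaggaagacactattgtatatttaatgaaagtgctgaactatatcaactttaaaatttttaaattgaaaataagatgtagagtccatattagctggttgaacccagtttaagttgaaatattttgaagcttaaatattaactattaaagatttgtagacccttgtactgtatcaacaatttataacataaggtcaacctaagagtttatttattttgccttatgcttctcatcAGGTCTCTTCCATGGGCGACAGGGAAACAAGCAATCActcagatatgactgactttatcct

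Over the 1326 pairs of windows the median longest shared run was 9 bases, and 16 pairs shared a run of 20 or more, of which 9 were adjacent genes. After Olfr1354 and Olfr8 the longest runs were 146 bases in Olfr819 and Olfr247, 140 in Olfr9 and Olfr763, 109 in Olfr772 and Olfr773, and 97 in Olfr765 and Olfr767. These pairs may share probe sequence too, and cross-hybridisation between such copies was not tested.

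Homeodomain proteins such as Lhx2 and Emx2 and the Ebf family are known regulators of odorant receptor genes. The letters TAATTA or TAATTG, searched on both strands with a window counted once, overlapping matches included, occurred in 23 of the 52 windows (44.2%), against 37.0% of 892 windows of odorant receptors elsewhere and 12.4% of all 32851 windows. TATAAA was found in 25 of 52 (48.1%), against 40.8% of the receptor windows elsewhere and 13.6% of all windows. The Ebf letters, TCCC and GGGA parted by 2 bases of any kind, were found in 0 of 52 windows, in 5 of the 892 receptor windows elsewhere (0.56%) and in 0.904% of all windows. At such low shares 0 of 52 does not set these receptors apart. As the windows may include coding sequence, these shares describe the windows and not promoters as such. One window from each side of the sort is shown with its homeodomain letters in capitals. Olfr780 (chr10:129321375-129321674, plus strand), lower in titled GFP-, holds 2 matches, the second at base 267, after the ATG. Olfr788 (chr10:129472444-129472743, plus strand), higher in titled GFP-, holds 1.
Olfr780: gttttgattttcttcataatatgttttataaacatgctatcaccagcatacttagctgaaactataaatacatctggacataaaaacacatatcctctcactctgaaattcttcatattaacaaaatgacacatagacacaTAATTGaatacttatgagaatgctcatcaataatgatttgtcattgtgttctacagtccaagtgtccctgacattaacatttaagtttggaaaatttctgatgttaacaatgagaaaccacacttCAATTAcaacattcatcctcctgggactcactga
Olfr788: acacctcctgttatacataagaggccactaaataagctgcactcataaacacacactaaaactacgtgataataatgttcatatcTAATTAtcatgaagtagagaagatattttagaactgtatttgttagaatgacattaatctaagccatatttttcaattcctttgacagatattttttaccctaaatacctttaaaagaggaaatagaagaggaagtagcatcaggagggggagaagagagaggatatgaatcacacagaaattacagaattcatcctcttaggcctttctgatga

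Mean log2 levels over 16 arrays ran from 3.54 to 13.66 with a median of 8.98, and 63 of 65 (96.9%) lay above the median of the negative control probe sets, 5.45, against 894 of 1015 odorant receptors elsewhere (88.1%). The exceptions were Olfr768 and Olfr782. Above the 95th percentile of the negative controls, 9.56, lay 25 receptors, and the other 40 lay within the range of most negative controls. The odor titled GFP- mean was at or below the negative control median for Olfr768 (3.75), Olfr780 (4.21), Olfr782 (3.14), Olfr809 (4.88) and Olfr827 (5.16), of which 4 were called lower in odor (all but Olfr768), so the size of their difference rests on values near background. Among receptors called lower in odor, that mean stood little above the control median for Olfr794 (5.61), Olfr8 (5.67), Olfr825 (5.72), Olfr812 (5.90) and Olfr826 (5.95). Their differences carry the same limit. Levels of different probe sets are not compared with each other, and no level is called absent.

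After odor, the receptors of chromosome 10 were split between the fractions, mostly towards the fraction titled GFP+, the one with less S100a5. On 14 arrays 34 of the 65 passed the test, 7 higher and 27 lower in titled GFP-. Over all genes 13.2% passed, 4.59% higher and 8.59% lower. The same shares were 10.8% higher and 41.5% lower for the 65 receptors, and 35.1% higher and 25.8% lower for the 1015 odorant receptors elsewhere, a contrast that was not tested. On 16 arrays 21 receptors passed, 4 higher and 17 lower, against 6.97% of all genes (2.39% higher and 4.57% lower), and all 21 were among the 34. The median difference over the 65 was -0.63 (quartiles -2.05 and 0.07), with 46 below 0 and 19 above, against a median of 0.31 for odorant receptors elsewhere and 0.08 for all genes. With the pool of mice as a block the 34 became 37 on 14 arrays and the 21 became 0 on 16 arrays, where 44 receptors had an unadjusted p under 0.05. The 21 also became 0 without odor titled GFP- library 1, 2, 3 or 4 or without odor titled GFP+ library 1, 2 or 3. Centring each array on its median moved the median of all genes to 0.43 and that of the 65 receptors to -0.28. The called receptors then numbered 39 on 14 arrays, 13 higher and 26 lower (33.3% higher, against 20.6% without centring). On 16 arrays they numbered 29, 8 higher and 21 lower, while calls over all genes rose from 1359 to 5741. More receptor calls after centring are thus not particular to receptors.

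The differences of the lower side were large, though several of the largest rest on titled GFP- levels near the negative control median, as given above. Of the 65 receptors 29 had an odor difference of -1 or below, 18 of -2 or below and 7 of -4 or below, while 5 reached 1, 2 reached 2 and 0 reached 4 on the higher side. In what follows, the 4 values of a group are log2 levels in replicates 1 to 4, and differences are titled GFP- minus titled GFP+ on 14 arrays with limma's standard error. On 16 arrays the odor differences were the same with wider errors, such as -7.39 ± 1.85 in Olfr794 (adjusted p 0.0328) and 2.49 ± 0.55 in Olfr57 (adjusted p 0.0286), while Olfr788 (adjusted p 0.134) and Olfr811 (adjusted p 0.0934) did not pass. The vehicle differences on 16 arrays were -3.45 ± 1.85 in Olfr794 (adjusted p 0.565) and 0.98 ± 0.55 in Olfr57 (adjusted p 0.582).

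**Figure D1:**
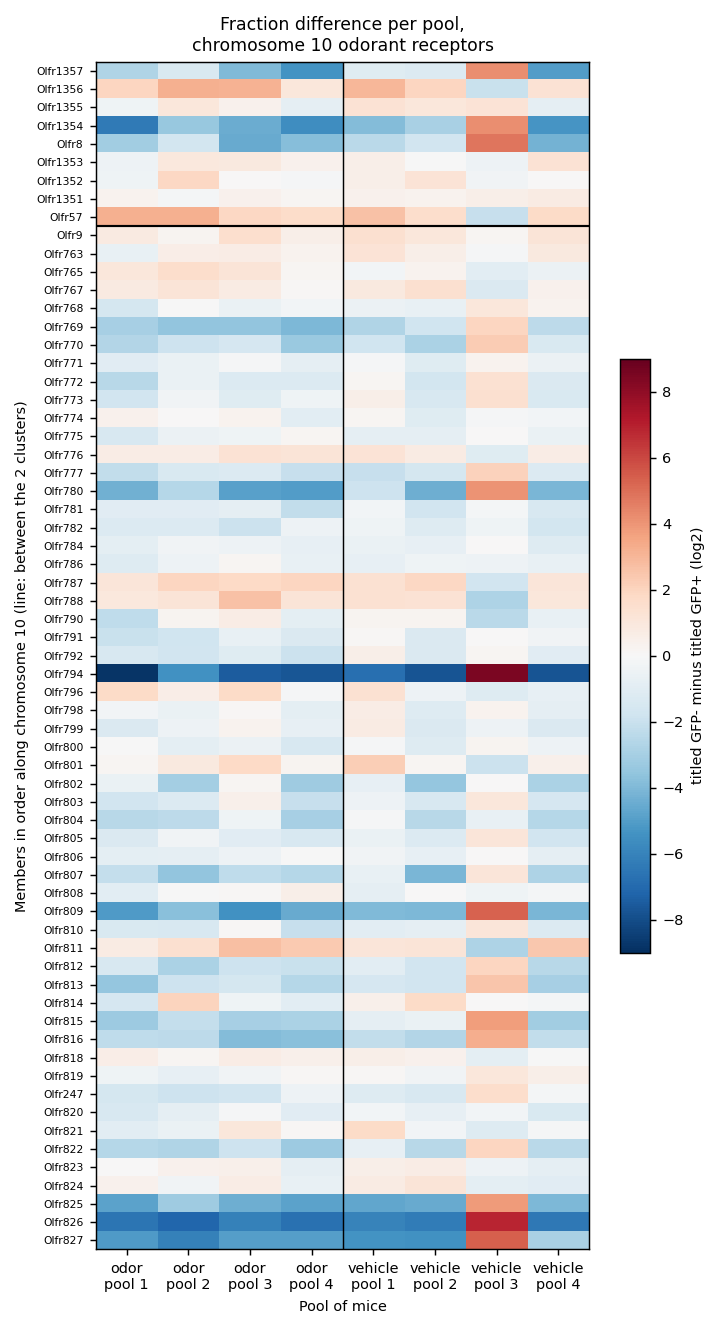
Fraction difference (titled GFP- minus titled GFP+, log2) of each of the 65 receptors, down the page in gene order along chromosome 10, in each of the 8 pools of mice, odor pools left of vehicle pools; blue is lower and red higher in titled GFP-, and the horizontal line parts the clusters of 9 and 56 genes. Blue rows such as Olfr794, Olfr826 and Olfr827 run through 7 pools and turn red in vehicle pool 3.

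Olfr794 had the most negative difference. It lay at 4.11, 7.70, 5.46 and 5.18 in odor titled GFP-, against 12.96, 13.16, 12.97 and 12.91 in odor titled GFP+. Its vehicle values were 6.46, 4.89, 13.71 and 5.15 in titled GFP-, against 13.27, 12.63, 5.23 and 12.89 in titled GFP+. The groups did not overlap outside vehicle pool 3, where the fractions stood the other way round. The difference was -7.39 ± 0.54 in odor (adjusted p 1.34e-07) and -7.43 ± 0.63 in vehicle (adjusted p 9.14e-07).

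The last 3 genes of the large cluster, Olfr825, Olfr826 and Olfr827, were all lower in titled GFP-. Olfr826 lay at 5.63, 5.63, 6.56 and 5.99 in odor titled GFP-, against 12.21, 12.79, 12.67 and 12.70 in odor titled GFP+. In vehicle it lay at 6.20, 6.40, 13.45 and 6.31 in titled GFP-, against 12.20, 12.69, 6.57 and 12.72 in titled GFP+. Its libraries lay close together within each fraction, and it differed by -6.64 ± 0.21 in odor (adjusted p 2.83e-11) and -6.24 ± 0.24 in vehicle (adjusted p 6.00e-10). Olfr827 lay at 4.88, 5.03, 5.04 and 5.70 in odor titled GFP-, against 9.99, 11.11, 9.99 and 10.66 in odor titled GFP+. Its vehicle levels were 4.27, 4.53, 9.97 and 7.19 in titled GFP-, against 9.68, 9.95, 4.55 and 10.09 in titled GFP+. The titled GFP- library of vehicle pool 4 stood above those of pools 1 and 2, and still below every titled GFP+ library outside pool 3. Differences were -5.27 ± 0.48 in odor and -4.58 ± 0.56 in vehicle. Olfr825 lay at 5.07, 6.60, 6.08 and 5.13 in odor titled GFP-, against 9.88, 9.79, 10.47 and 9.98 in odor titled GFP+. Its vehicle levels were 4.83, 5.69, 10.42 and 6.11 in titled GFP-, against 9.51, 10.24, 6.57 and 10.13 in titled GFP+. It too separated the fractions outside vehicle pool 3, with differences of -4.31 ± 0.34 in odor and -4.42 ± 0.39 in vehicle.

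Olfr1354, of the near-identical pair shown above, lay at 4.58, 7.48, 6.50 and 6.02 in odor titled GFP-, against 10.91, 10.87, 10.94 and 11.58 in odor titled GFP+. In vehicle it lay at 7.42, 8.23, 11.02 and 5.56 in titled GFP-, against 11.29, 11.18, 6.84 and 10.87 in titled GFP+. Its titled GFP- libraries were spread over a wider range than its titled GFP+ libraries in both treatments. The differences were -4.93 ± 0.55 in odor and -4.04 ± 0.63 in vehicle. Olfr8, its partner, also differed, by -3.28 ± 0.53 in odor and -2.80 ± 0.61 in vehicle, and the 2 cannot be taken as independent.

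Olfr809 lay at 4.15, 5.37, 4.63 and 5.37 in odor titled GFP-, against 9.25, 9.13, 10.09 and 9.91 in odor titled GFP+. Its vehicle values were 4.72, 5.71, 11.25 and 5.20 in titled GFP-, against 8.67, 9.77, 5.95 and 9.29 in titled GFP+. It was lower in titled GFP- in all 7 pools other than vehicle pool 3, with differences of -4.71 ± 0.33 in odor and -4.03 ± 0.38 in vehicle. Olfr780 lay at 3.98, 4.81, 4.21 and 3.83 in odor titled GFP-, against 8.30, 7.37, 9.10 and 8.83 in odor titled GFP+. The vehicle values of Olfr780 were 5.28, 4.28, 8.72 and 3.97 in titled GFP-, against 7.12, 8.68, 4.71 and 8.11 in titled GFP+. Its titled GFP- values outside vehicle pool 3 all stood below the negative control median, so that side is a level near background. The difference was -4.19 ± 0.40 in odor and -3.46 ± 0.47 in vehicle.

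The receptors on the higher side had smaller differences, the highest being those of Olfr57 and Olfr1356 of the small cluster. Olfr57 lay at 10.82, 11.36, 10.77 and 10.41 in odor titled GFP-, against 7.59, 8.15, 8.91 and 8.76 in odor titled GFP+. Its vehicle levels were 10.46, 10.21, 8.92 and 10.11 in titled GFP-, against 7.81, 8.63, 10.97 and 8.36 in titled GFP+. Outside vehicle pool 3 no titled GFP- library of Olfr57 stood below a titled GFP+ library, and the difference was 2.49 ± 0.28 in odor (adjusted p 1.11e-05) and 1.99 ± 0.32 in vehicle (adjusted p 0.000448). Olfr1356 lay at 11.06, 11.91, 11.50 and 11.20 in odor titled GFP-, against 9.12, 8.69, 8.37 and 10.21 in odor titled GFP+. In vehicle it lay at 11.76, 11.42, 10.06 and 10.78 in titled GFP-, against 8.77, 9.51, 12.08 and 9.44 in titled GFP+. It likewise separated the fractions outside vehicle pool 3, by 2.32 ± 0.34 in odor and 2.08 ± 0.40 in vehicle.

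The neighbours Olfr787 and Olfr788 were both higher in titled GFP-. Olfr787 lay at 12.02, 12.85, 12.24 and 13.36 in odor titled GFP-, against 10.95, 10.93, 10.43 and 11.40 in odor titled GFP+. In vehicle Olfr787 lay at 12.28, 13.15, 10.90 and 12.33 in titled GFP-, against 10.90, 11.26, 12.64 and 11.21 in titled GFP+. Differences of 1.69 ± 0.29 in odor and 1.46 ± 0.33 in vehicle exceeded the spread within each fraction. Olfr788 lay at 12.70, 13.16, 13.47 and 13.44 in odor titled GFP-, against 11.72, 11.99, 10.82 and 12.27 in odor titled GFP+. Its vehicle levels were 13.39, 13.69, 10.27 and 12.97 in titled GFP-, against 12.04, 12.37, 13.04 and 11.95 in titled GFP+. The fractions did not overlap outside vehicle pool 3, and the differences were 1.49 ± 0.28 in odor and 1.23 ± 0.32 in vehicle. Olfr811, farther along the large cluster, lay at 9.28, 10.34, 9.58 and 10.35 in odor titled GFP-, against 8.56, 8.87, 6.90 and 7.97 in odor titled GFP+. In vehicle Olfr811 lay at 9.24, 10.03, 7.34 and 10.06 in titled GFP-, against 8.12, 8.88, 10.09 and 7.62 in titled GFP+. It was higher in titled GFP- by 1.81 ± 0.40 in odor (adjusted p 0.00518) and 1.57 ± 0.46 in vehicle (adjusted p 0.0381). The vehicle calls of Olfr788 and Olfr811 rested on single libraries. Olfr788 missed the threshold without vehicle titled GFP- library 1 or 2 or titled GFP+ library 1 or 4 (adjusted p up to 0.0866), and Olfr811 without titled GFP- library 2 or 4 or titled GFP+ library 1 or 4 (up to 0.157).

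**Figure D2:**
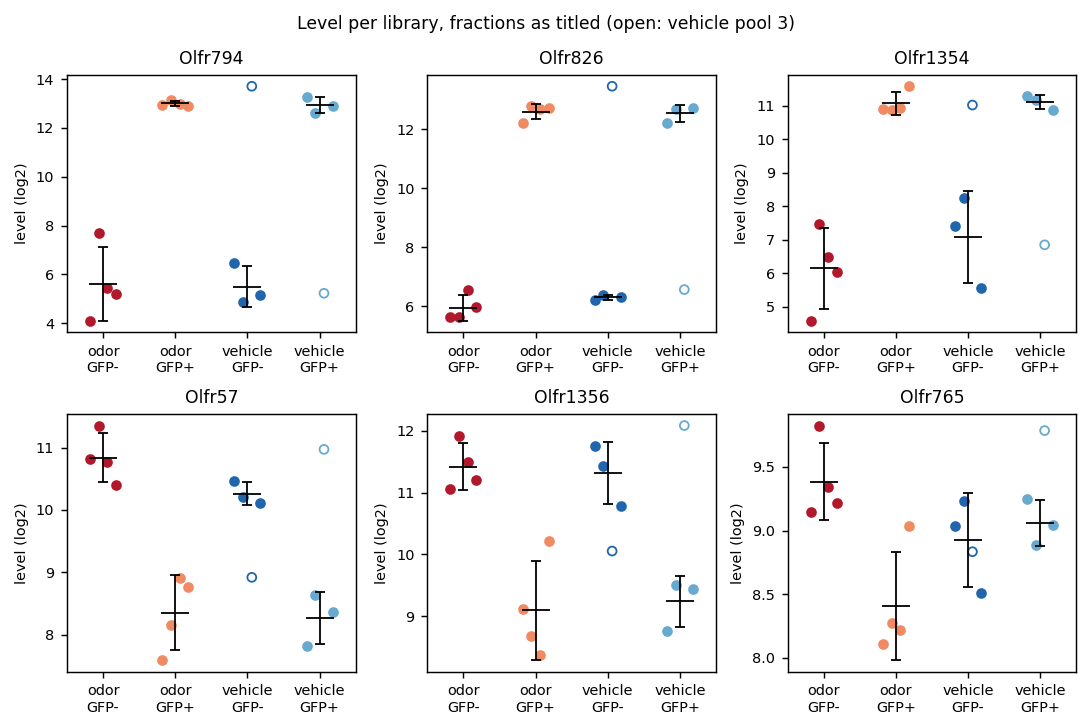
Log2 level in each library for 6 of the receptors, with a panel per gene and a column per group, odor groups left of vehicle groups and titled GFP- left of titled GFP+; bars are mean and SD without vehicle pool 3, whose libraries are open circles. Olfr794, Olfr826 and Olfr1354 are lower in titled GFP- and Olfr57 and Olfr1356 higher in both treatments, and for these 5 genes the open circles lie with or towards the opposite fraction. Olfr765 separates the fractions in odor and not in vehicle.

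A split of the same kind was present in the vehicle pools, whose mice received no odor. On 14 arrays 27 receptors passed, 7 higher and 20 lower in titled GFP-, against 11.2% of all genes (3.32% higher and 7.86% lower). Among odorant receptors elsewhere 31.0% were higher and 23.0% lower. The median over the 65 was -0.60, with 44 below 0 and 21 above, against 0.33 for odorant receptors elsewhere and 0.10 for all genes. On 16 arrays limma called 0 of the 65, with 11 at an unadjusted p under 0.05 and a lowest adjusted p of 0.478, and called 0.0% of all genes. Centring each array gave 32 calls on 14 arrays, 13 higher and 19 lower (40.6% higher, against 25.9% without centring), and moved the median of all genes to 0.46 and that of the receptors to -0.24. The share of all genes called after centring is not given here.

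The odor and vehicle pools came from different mice. On 14 arrays 25 receptors were called in both, all with the same sign, 6 higher and 19 lower, which is 73.5% of the odor calls and 92.6% of the vehicle calls. Over odorant receptors elsewhere the shares were 83.7% and 94.3%, and over all genes 69.3% and 81.7%, a contrast that was not tested. On 16 arrays 0 were called in both, as none was called in vehicle. Across the 65 receptors Pearson's r between the mean odor and mean vehicle difference was 0.975 and Spearman's rho 0.958, as a description of points that share probes and arrays. Over odorant receptors elsewhere r was 0.977. In 61 of 65 the sign was the same (93.8%), against 90.8% of odorant receptors elsewhere and 76.0% of all genes, and on 16 arrays in 56 of 65 (r = 0.909). Of the 34 receptors called in odor, 33 had the same sign in all 4 odor pools, which a call on those same pools makes likely. That sign recurred for 31 in vehicle pool 1, 34 in vehicle pool 2 and 33 in vehicle pool 4, but for 4 in vehicle pool 3. The pattern of vehicle pool 3 was a mirror image of the others, with r = -0.902 across the 65 receptors against the mean of vehicle pools 1, 2 and 4, where each of those pools had r between 0.871 and 0.892 against the other pair. Outside pool 3, all 7 libraries titled GFP- lay below all 7 titled GFP+ for 17 receptors (26.2%, against 6.58% of all genes) and above them for 6 (9.23%, against 2.69%).

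**Figure D3:**
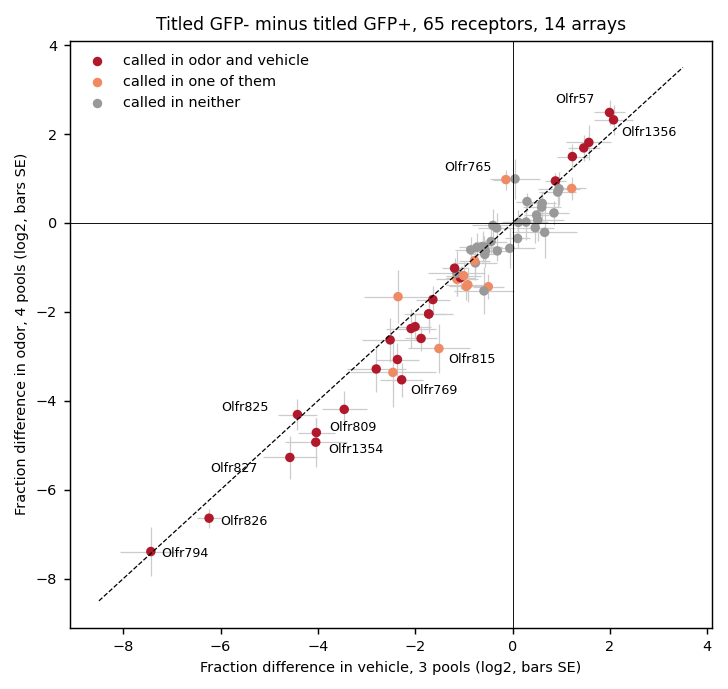
Fraction difference (titled GFP- minus titled GFP+, log2) in odor over 4 pools against that in vehicle over pools 1, 2 and 4 for the 65 receptors, with bars of 1 SE and the line of equality dashed. The 25 receptors called in both treatments span the whole diagonal, and the largest distances from it include Olfr765, Olfr769 and Olfr815.

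Called in odor and not in vehicle were 9 receptors (Olfr1357, Olfr765, Olfr772, Olfr781, Olfr791, Olfr810, Olfr815, Olfr247 and Olfr820), and called in vehicle only were Olfr9 and Olfr802. A call in 1 treatment does not show that the treatments differ, and for none of these 11 did the difference between treatments pass its own test. Olfr9 lay at 7.59, 8.06, 7.87 and 7.44 in odor titled GFP-, against 6.81, 7.81, 6.35 and 6.88 in odor titled GFP+. In vehicle Olfr9 lay at 7.97, 8.28, 7.70 and 7.90 in titled GFP-, against 6.51, 7.25, 7.51 and 6.74 in titled GFP+. Its difference was 0.78 ± 0.26 in odor (adjusted p 0.0666) and 1.22 ± 0.30 in vehicle (adjusted p 0.0138, but 0.0753 without vehicle titled GFP+ library 1 and 0.0646 without vehicle titled GFP- library 2). Olfr802 differed by -1.66 ± 0.60 in odor (adjusted p 0.0918) and by -2.35 ± 0.69 in vehicle (adjusted p 0.0389). The other 29 receptors passed in neither treatment.

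The 2 clusters did not behave as blocks. In the cluster of 9, the odor difference had a median of 0.18, with 2 genes called higher (Olfr1356 and Olfr57) and 3 lower (Olfr1357, Olfr1354 and Olfr8), so that the highest difference of the 65 and a large negative one stood within a few genes of each other. Olfr1353, Olfr1352, Olfr1351 and Olfr1355 passed in neither treatment. In the cluster of 56 the odor median was -0.78, with 43 genes below 0, 24 called lower and 5 called higher. In vehicle the medians were 0.52 in the cluster of 9 and -0.67 in the cluster of 56. These values are from 14 arrays. On 16 arrays the odor calls were 2 higher and 1 lower in the cluster of 9, and 2 higher and 16 lower in the cluster of 56. Neighbouring genes resembled each other weakly: across the 55 neighbouring pairs of the large cluster r was 0.217 in odor and 0.209 in vehicle, and the median absolute difference between neighbours was 1.32, against 1.56 between all pairs. The longest run of neighbours called lower in odor was Olfr777, Olfr780, Olfr781 and Olfr782, and the next was Olfr825 to Olfr827. Olfr782 lay below the negative control median in every group mean (2.82 to 4.37), so its place in the run rests on background levels. Called genes of opposite direction stood side by side too, as in Olfr776, higher in titled GFP- by 0.95 ± 0.19 in odor, and Olfr777, lower with a difference of -1.72 ± 0.31.

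Of the 16 pairs of promoter windows with a shared run of 20 bases or more, 15 pairs had odor differences of the same sign, where 46 of the 65 receptors lay below 0 in any case. The exception was Olfr775 and Olfr776, with -0.55 and 0.95 and a shared run of 32 bases. Olfr814 and Olfr815, with a shared run of 65 bases, had the same sign and differed in size, with -0.21 and -2.82. The homeodomain letters were present in 9 of 22 windows of receptors called lower in odor (40.9%), in 3 of 6 of those called higher (50.0%) and in 11 of 24 of those not called (45.8%). Across the 65 receptors r between mean level and odor difference was 0.215.

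The question of the assay is which receptors shift between fractions after odor. The shift is the fraction difference in odor minus that in vehicle, and none of the 65 receptors passed the test for it. On 14 arrays limma called 0 of 65, with 2 at an unadjusted p under 0.05 and a lowest adjusted p of 1.00, while 0.0103% of all genes were called (2 genes, both odorant receptors elsewhere). On 16 arrays it called 0 of 65, with 5 at an unadjusted p under 0.05 and a lowest adjusted p of 0.999, while 0.00513% of all genes were called. The 65 shifts ran from -1.31 to 1.11 on 14 arrays with a median of -0.18, 43 of them below 0, against a median of -0.04 for odorant receptors elsewhere and -0.01 for all genes.

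The 95% intervals of the shifts are unadjusted, and a call over all genes needs a larger shift than one whose interval leaves out 0. On 14 arrays they reached 0.61 to 2.50 to either side, with a median of 1.07. The whole interval lay within 1 log2 unit of 0 for 9 of the 65 receptors and within 2 units for 54, and it included 0 for 63. On 16 arrays the intervals reached 0.71 to 5.57 to either side, and lay within 2 units of 0 for 29.

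**Figure D4:**
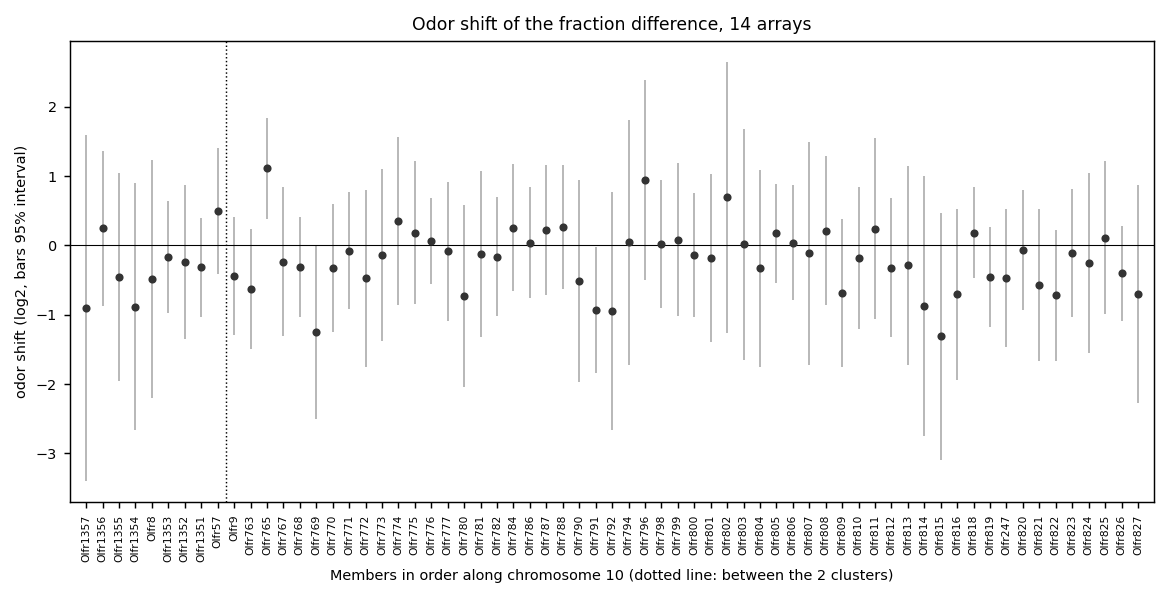
Odor shift (fraction difference in odor minus that in vehicle, log2) of each of the 65 receptors in gene order along chromosome 10, from 14 arrays, with 95% intervals; the dotted line parts the clusters. Intervals of Olfr765, above 0, and Olfr791, below 0, leave out 0 without adjustment, and none passed adjustment over all genes.

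Olfr765 had the smallest p of the 65 for the shift. It lay at 9.15, 9.83, 9.34 and 9.22 in odor titled GFP-, against 8.11, 8.27, 8.22 and 9.04 in odor titled GFP+. In vehicle it lay at 9.03, 9.23, 8.83 and 8.51 in titled GFP-, against 9.25, 8.89, 9.79 and 9.05 in titled GFP+. The fractions did not overlap in odor and did in vehicle. The fraction difference was 0.98 ± 0.22 in odor (adjusted p 0.00704) and -0.14 ± 0.26 in vehicle (adjusted p 0.813), and the shift was 1.11 with a 95% interval of 0.38 to 1.84 (unadjusted p 0.00542). Its neighbour Olfr767, whose promoter window shares a run of 97 bases with it, had differences of 0.70 ± 0.33 in odor and 0.93 ± 0.38 in vehicle and passed in neither.

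Olfr791 lay at 8.59, 9.50, 9.96 and 9.30 in odor titled GFP-, against 10.57, 11.28, 10.66 and 10.56 in odor titled GFP+. In vehicle Olfr791 lay at 10.07, 9.72, 11.02 and 10.06 in titled GFP-, against 9.93, 11.00, 10.96 and 10.40 in titled GFP+. Here too the fractions overlapped in vehicle and not in odor. The shift was -0.93 (95% interval -1.85 to -0.02, unadjusted p 0.0452), from -1.43 ± 0.28 in odor and -0.50 ± 0.32 in vehicle. Olfr769 lay at 7.81, 6.40, 7.57 and 6.37 in odor titled GFP-, against 10.77, 9.95, 11.11 and 10.44 in odor titled GFP+. Its vehicle levels were 8.31, 7.64, 11.17 and 7.55 in titled GFP-, against 11.00, 9.44, 9.23 and 9.90 in titled GFP+. The fractions of Olfr769 separated in both treatments outside vehicle pool 3, with -3.53 ± 0.39 in odor and -2.28 ± 0.44 in vehicle, and the interval of the shift, -2.50 to 0.01, reached 0.

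Olfr815 had the most negative shift, -1.31 (95% interval -3.10 to 0.48). It lay at 5.29, 7.51, 6.40 and 6.11 in odor titled GFP-, against 8.58, 9.68, 9.39 and 8.96 in odor titled GFP+. In vehicle Olfr815 lay at 7.14, 8.30, 9.75 and 5.19 in titled GFP-, against 7.98, 8.88, 6.00 and 8.32 in titled GFP+. Its vehicle libraries titled GFP- were spread widely and overlapped those titled GFP+. Olfr816, beside it, lay at 8.05, 8.58, 6.44 and 6.63 in odor titled GFP-, against 10.32, 10.93, 10.31 and 10.42 in odor titled GFP+. Its vehicle levels were 8.18, 8.42, 10.80 and 8.13 in titled GFP-, against 10.41, 11.07, 7.50 and 10.36 in titled GFP+. Libraries 3 and 4 of odor titled GFP- lay below every vehicle library titled GFP- of Olfr816, which had a shift of -0.71 (95% interval -1.94 to 0.53).

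Olfr822 lay at 6.73, 6.92, 7.36 and 5.99 in odor titled GFP-, against 9.28, 9.65, 9.23 and 9.23 in odor titled GFP+. In vehicle Olfr822 lay at 7.83, 7.03, 9.30 and 6.84 in titled GFP-, against 8.54, 9.53, 7.38 and 9.27 in titled GFP+. The receptor was lower in titled GFP- in both treatments, and its shift was -0.72 (95% interval -1.67 to 0.23). Olfr763 lay at 6.96, 8.34, 8.49 and 7.89 in odor titled GFP-, against 7.61, 7.76, 7.83 and 7.58 in odor titled GFP+. In vehicle Olfr763 lay at 8.75, 8.37, 8.12 and 8.21 in titled GFP-, against 7.55, 7.87, 8.21 and 7.36 in titled GFP+. Its fractions overlapped in odor and separated in vehicle pools 1, 2 and 4, and neither difference passed (0.23 ± 0.27 in odor and 0.85 ± 0.31 in vehicle). Olfr796 lay at 10.55, 10.04, 12.00 and 10.44 in odor titled GFP-, against 8.82, 9.43, 10.28 and 10.54 in odor titled GFP+. In vehicle Olfr796 lay at 11.17, 10.04, 10.36 and 9.74 in titled GFP-, against 9.81, 10.51, 11.49 and 10.48 in titled GFP+. Its groups overlapped in both treatments, with a shift of 0.94 (95% interval -0.50 to 2.39). Olfr819 lay at 10.65, 10.73, 10.56 and 11.17 in odor titled GFP-, against 11.03, 11.49, 10.88 and 11.09 in odor titled GFP+. In vehicle Olfr819 lay at 11.02, 10.80, 11.91 and 11.85 in titled GFP-, against 10.90, 11.14, 10.90 and 11.32 in titled GFP+. These groups overlapped as well, and the shift was -0.45 (95% interval -1.17 to 0.27). Among receptors with wide splits between fractions, the shift on the lower side was 0.04 in Olfr794 (95% interval -1.73 to 1.82), -0.40 in Olfr826 (-1.09 to 0.28), -0.68 in Olfr809 (-1.75 to 0.38), -0.70 in Olfr827 (-2.27 to 0.88), 0.11 in Olfr825 (-0.995 to 1.22), -0.73 in Olfr780 (-2.05 to 0.58) and -0.89 in Olfr1354 (-2.67 to 0.90), and on the higher side it was 0.49 in Olfr57 (-0.41 to 1.40).

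Odor against vehicle within a fraction gave no call among the 65 either. In titled GFP-, limma called 0 of 65 on 14 arrays (1 at an unadjusted p under 0.05, lowest adjusted p 0.398) and 0 on 16 arrays (5 at an unadjusted p under 0.05, lowest adjusted p 0.664), against 0.0256% and 0.0103% of all genes. In titled GFP+, it called 0 of 65 on 14 arrays (2 at an unadjusted p under 0.05, lowest adjusted p 0.522) and 0 on 16 arrays (2 at an unadjusted p under 0.05, lowest adjusted p 1.00), against 0.0359% and 0.0% of all genes. Olfr818 had the smallest p in titled GFP-, where it lay at 10.06, 9.81, 10.44 and 10.02 in odor libraries, against 9.37, 9.81, 9.26 and 8.92 in vehicle libraries. On 14 arrays it differed by 0.71 ± 0.22 there and by 0.53 ± 0.22 in titled GFP+, where it lay at 9.44, 9.64, 9.74 and 9.56 in odor and 8.82, 9.45, 10.17 and 8.94 in vehicle. Both differences were positive and neither passed adjustment (adjusted p 0.398 and 0.575). Next in titled GFP- came Olfr791 with -0.61 ± 0.30 and Olfr816 with -0.82 ± 0.41, and on 16 arrays Olfr819 with -0.62 ± 0.24. In titled GFP+ the smallest p was that of Olfr765, with -0.65 ± 0.24 (adjusted p 0.522), and after it and Olfr818 came Olfr1351 with 0.47 ± 0.24. On 16 arrays the next were Olfr782, with 0.61 ± 0.27, and Olfr768, with 0.53 ± 0.26, both of them below the negative control median in their mean level.

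The genes that carry the receptor signal were nearly even between fractions, while markers of other cells were not. Of 23 listed genes of olfactory transduction and receptor biogenesis, 3 were higher in titled GFP- in odor on 14 arrays and 0 lower: Ano2 (0.51 ± 0.12), the phosphodiesterase Pde1c (0.69 ± 0.14) and the exchanger Slc24a4 (0.56 ± 0.14). In vehicle Ano2 (0.52 ± 0.14) and Pde1c (0.75 ± 0.16) were higher, and 0 lower. On 14 arrays all 6 genes of the activity list, S100a5, Kirrel2, Pcp4l1, Lrrc3b, Kcng1 and Cidea, were higher in titled GFP- in both treatments. Their median differences were 1.28 in odor and 1.45 in vehicle. For S100a5 this follows in part from the choice of the 14 arrays. Of 10 mature neuron markers 1 (Ano2) was higher on 14 arrays, in odor and in vehicle alike. The mean level of these 10 ran from 16.13 to 16.37 in odor titled GFP- and from 16.05 to 16.19 in odor titled GFP+. On 16 arrays 3 of the 23 pathway genes, 3 of 6 activity genes and 1 of 10 mature neuron markers were higher in odor, and 0 genes of these lists passed in vehicle.

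On 14 arrays immature neuron markers such as Gap43 and Gng8 were lower in titled GFP- in both treatments (4 of 6). Lower in both treatments, too, were 4 of 4 globose basal and progenitor, 5 of 5 microvillar, 6 of 6 myeloid and 3 of 3 lymphoid genes, and 1 of 2 vomeronasal genes, Gnai2. Sustentacular genes were lower in 5 of 6 in odor and 3 of 6 in vehicle. On 16 arrays the counts lower in odor were 4 of 6 immature, 3 of 4 globose basal and progenitor, 5 of 5 microvillar, 6 of 6 myeloid, 2 of 3 lymphoid, 1 of 2 vomeronasal and 3 of 6 sustentacular genes, and 0 of these passed in vehicle. Over the 6 myeloid genes the mean level ran from 4.65 to 6.73 in odor titled GFP- and from 12.0 to 14.8 in odor titled GFP+, and vehicle pool 3 was reversed, at 12.6 in titled GFP- and 4.48 in titled GFP+. The fraction in which most of these receptors were higher was thus also the one with more RNA of immature neurons and of other cells, and the part this had in the receptor differences was not tested. No gene of the 10 lists passed the test for the shift on either set of arrays.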

How the data were processed

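The authors deposited log2 values in a single table; the submitters' processing notes name Affymetrix Expression Console. Neither its version nor the summarization, nor a genome build, is given in the sources used here. Values reached 19.4, past the 16 that a 16-bit scanner allows, and why is not given in the sources used here, so differences are not given as folds. Array medians lay between 6.13 and 6.45. With 4 arrays a group at most, precision is limited by their number. Of 28846 probe sets 6640 were controls, 5222 of them negative controls.

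All 19505 genes entered 1 limma model (lmFit, eBayes; limma 3.58.1, R 4.3.3) of 4 group means with no block and two-sided tests; adjusted p is Benjamini-Hochberg over these, with a threshold of 0.05. P-values measure the spread between pools of mice. Libraries of 1 treatment with the same number came from the same mice. Their deviations from the group means correlated between 0.127 and 0.253 in odor and between -0.754 and -0.0645 in vehicle.

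The members and the lists were chosen with earlier results of these data known, and the 14-array set because vehicle pool 3 stood apart. Values per library are given for the receptors with the 10 smallest p for the shift and the 6 most positive and 6 most negative called fraction differences, per set of arrays. Named besides are up to 3 receptors by p in each odor comparison, S100a5 and the listed genes. Protein identity between receptors was not analysed here. Promoter pairs and the windows printed were picked after their values were seen. Alternatives tried were centring, quantile normalization, a filter at the negative control median, an intensity trend, the pool block and leaving out each library. The fits were tested on simulated data.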

Additional observations from a re-analysis of the deposited data

Results flagged for a closer look

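In 12 of 108 tested groups of 4 libraries 1 library stood far from the others of its group by Dixon's criterion. Chance gives about 1 in 20 for independent groups. These groups share libraries, and their genes were S100a5 and receptors named for their differences, among which a reversed pool stands out. The rates are therefore not compared. Of these 12, 8 were libraries of vehicle pool 3. Titled GFP-, that pool had 13.45 for Olfr826 (others 6.20 to 6.40), 11.25 for Olfr809 (4.72 to 5.71), 10.80 for Olfr816 (8.13 to 8.42) and 14.99 for S100a5 (16.27 to 16.44). Titled GFP+, it had 5.23 for Olfr794 (others 12.63 to 13.27), 6.57 for Olfr826 (12.20 to 12.72), 4.55 for Olfr827 (9.68 to 10.09) and 6.84 for Olfr1354 (10.87 to 11.29). The remaining 4 were in odor titled GFP+. Library 2 had 11.28 for Olfr791 (others 10.56 to 10.66), 10.93 for Olfr816 (10.31 to 10.42) and 9.65 for Olfr822 (9.23 to 9.28), and library 4 had 11.58 for Olfr1354 (10.87 to 10.94).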

How the results depend on the processing

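The number of receptors called depended most on vehicle pool 3 and, on 16 arrays, on single libraries. For the odor fraction difference on 16 arrays the main count was 21. With the pool of mice as a replicate block it was 0. Leaving out 1 library at a time gave 0 to 30: it was 0 without any 1 of odor titled GFP- libraries 1, 2, 3 or 4 or odor titled GFP+ libraries 1, 2 or 3, 17 without odor titled GFP+ library 4, and 19 to 30 without 1 vehicle library, with 30 without vehicle titled GFP- library 3. For the vehicle fraction difference on 16 arrays it was 0, and 0 to 7 when 1 library was left out, with 7 without vehicle titled GFP+ library 3. On 14 arrays the same ranges were 30 to 37 in odor and 22 to 28 in vehicle, and the block gave 37 and 29, of which 34 and 25 were called without it. Quantile normalization gave 35 and 28, the filter 33 and 26, the intensity trend 34 and 27. The count for the odor shift, and for odor against vehicle within each fraction, was 0 under every alternative run for it, with 0 to 0 over the libraries left out. The block could not be fitted within a fraction, where each pool has 1 library. Among named receptors no alternative reversed a called difference. Their calls were lost in 10 cases under the block, all for the odor difference on 16 arrays, and in 81 cases when 1 library was left out. The other 895 such cases counted as unchanged. They include comparisons that were not called to begin with, which had no call to lose and whose direction was not checked. The cause of the other changes was not tested. Arrays give no read depth, and 25 of the 65 receptors lay above the 95th percentile of the negative controls.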
